A study of Mus musculus with 3 samples.

Results

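High-RNA cells are described here, stimulated CD4 T cells with an unusually large amount of RNA counted per cell. They were chosen by total unique molecular identifiers (UMIs, counted transcript molecules): a member held 18000 to 35000 UMIs, with under 15% of them from mitochondrial genes, in either stimulated library. There were 2451 such cells among the 31854 kept cells of the series, of which 1696 came from the stimulated WT library and 755 from the stimulated KO library. Cells of the same library with 6000 to 12000 UMIs served as the comparison, 2338 in WT and 3393 in KO.

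The study asked what IFT20, a protein of the intraflagellar transport complex, does in CD4 T cell activation, and its data were 3 single-cell RNA libraries. WT mice carried the floxed *Ift20* gene without Cre (*Ift20* f/f), and KO mice carried the same floxed gene with CD4-Cre, which deletes it in cells that have expressed CD4 during thymic development. The mice were C57BL/6 males of 5 to 10 weeks of age. Naive CD4 T cells of the spleen received antibodies to CD3 and CD28, each at 1 μg/mL, for 24 h, after which live CD3+CD4+ cells were sorted. Another library held unstimulated WT cells at 0 h. Each condition was 1 library, and how many mice went into it was not given in the sources used here. No test across conditions was therefore possible and none is given. All differences between high-RNA and comparison cells are a description, because the cells were chosen by the number of UMIs to which every gene contributes.

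A naive T cell is small and holds little RNA. After its receptor and CD28 are engaged, it enlarges into a blast before it divides, and this growth depends on new ribosomes, imported amino acids and faster metabolism. The transcription factor MYC drives much of that program. Nucleolin (*Ncl*) and nucleophosmin (*Npm1*) are abundant nucleolar proteins of ribosome assembly, and both are among its known targets.

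The stimulated WT library held 116979076 UMIs in its 9903 kept cells and the stimulated KO library 106435143 in 13920. The files held 10320 WT and 13932 KO barcodes before the mitochondrial limit, and the cell numbers that the study states for its WT libraries are those of all barcodes. High-RNA cells were 17.1% of the WT cells (95% interval 16.4 to 17.9, exact Clopper-Pearson) and 5.42% of the KO cells (5.05 to 5.81). They held 32.3% of all WT UMIs and 15.5% of all KO UMIs. These shares are of all kept cells, and the libraries differed in UMIs per cell. The median cell had 12167 UMIs in WT and 5014.5 in KO, and 25.1% of the WT cells against 51.1% of the KO cells lay under 6000. Cells under 6000 had a median mitochondrial share of 10.0% in WT and 5.54% in KO. At least 6000 UMIs were held by 7417 WT and 6801 KO cells. The effect of genotype on the share of high-RNA cells cannot be told apart from depth, from the number of low-UMI cells and from the other differences between 2 libraries. The unstimulated library, with a median of 4627 UMIs, had 7 cells in the window among 8031.

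**Figure D1:**
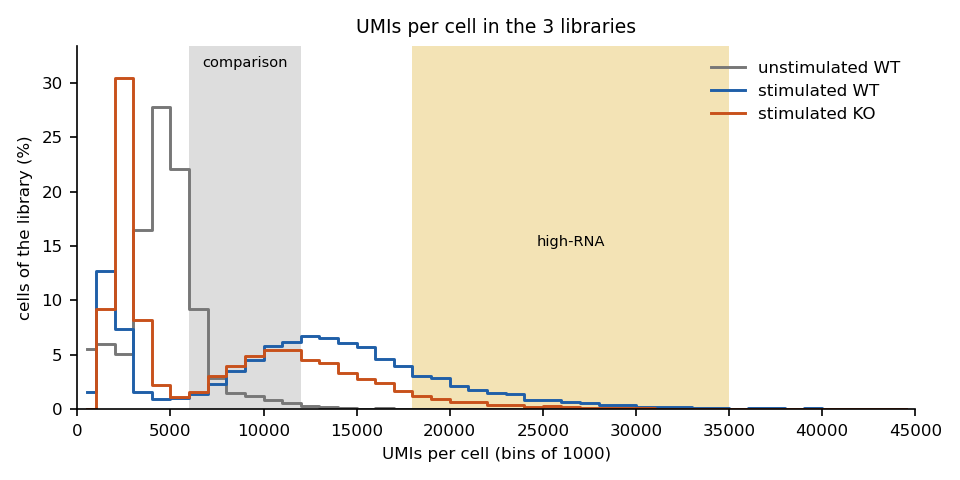
UMIs per cell (x axis, bins of 1000) against the percentage of each library's kept cells (y axis) for unstimulated WT, stimulated WT and stimulated KO; shading marks the comparison window (6000 to 12000 UMIs) and the high-RNA window (18000 to 35000). The high-RNA window lies on the falling right flank of both stimulated libraries, holding 17.1% of WT and 5.42% of KO cells.

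The limits of the window cut a continuous distribution. In the 1000 UMIs just below it lay 391 WT and 234 KO cells, and in the first 1000 inside it 298 WT and 165 KO cells. At the upper limit, 12 WT and 4 KO cells held 34000 to 35000 UMIs and 4 WT and 3 KO cells the next 1000. High-RNA cells had a median of 21346.5 UMIs in WT and 20794 in KO, against 10023.5 and 9730 in the comparison cells, so that the mean per cell was 2.28 times as high in both libraries. They showed a median of 4136.5 genes in WT and 4154 in KO against 2686 and 2709. When every cell was thinned at random to 6000 UMIs, the medians came closer, at 2080 and 2091 genes against 1984 and 2029. Mitochondrially encoded genes took a median of 1.15% of the UMIs of high-RNA cells in WT and 1.01% in KO, lower than the 1.42% and 1.11% of the comparison cells.

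Some barcodes occurred in more than 1 library. The WT and KO libraries shared 207, of which 38 belonged to a high-RNA cell in WT and 8 in KO. The WT and unstimulated libraries shared 125, with 20 of them high-RNA in WT, and the KO and unstimulated libraries shared 141, with 6 high-RNA in KO. Counts of genes are given with and without these barcodes.

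*Ift20* was examined first as a check of the KO label. Its level, in counts per 1000000 UMIs (CPM) summed over the cells of a group, was 69.6 in WT high-RNA cells and 85.7 in WT comparison cells, against 5.04 and 7.64 in KO. Within the high-RNA cells the KO level was lower by a log2 ratio of -3.79 (counting interval -4.12 to -3.47), and within the comparison cells by -3.49. After thinning, 31.9% of WT and 3.18% of KO high-RNA cells had an *Ift20* UMI. In both libraries *Ift20* was a smaller share of the RNA in high-RNA cells (log2 ratio -0.30 in WT and -0.60 in KO). The intervals here and in what follows are exact 95% intervals and cover counting error only, not the spread between animals or cultures.

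The proposed blast markers were then compared, and they did not move together. *Npm1* stood at 3854 CPM in WT high-RNA cells against 2728 in comparison cells, and at 3874 against 3003 in KO. *Ncl* stood at 1670 CPM against 1195 in WT and at 1640 against 1291 in KO. Their log2 ratios were 0.50 and 0.48 in WT and 0.37 and 0.35 in KO. *Myc* was different: its level was 257 CPM against 266 in WT and 222 against 227 in KO, with log2 ratios of -0.046 and -0.032. Per cell, a high-RNA cell still held about as many more *Myc* UMIs as it held more UMIs of any kind, 2.21 times those of a comparison cell in WT and 2.23 times in KO. *Myc* was found in 66.7% of thinned WT high-RNA cells and 58.5% of comparison cells, in 66.9% and 59.5% in KO, and in 33.0% of unstimulated cells of at least 6000 UMIs. As a share of the RNA, *Myc* thus did not mark these cells, and they are called high-RNA cells throughout.

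They expressed the T cell markers, which took 0.427% of the UMIs in WT and 0.425% in KO against 0.479% and 0.485% in comparison cells. Of 10 such genes 8 had a ratio below 0 in each library, with medians of -0.15 and -0.16, and *Cd2* (-0.68 and -0.60) and *Cd3g* (-0.41 and -0.40) had the lowest. *Cd3e*, a chain of the T cell receptor complex, had log2 ratios of -0.16 in WT and -0.21 in KO, the coreceptor *Cd4* 0.20 and 0.055, and the receptor constant region *Trac* -0.048 and -0.084. Markers of other cell types were scarce. The 8 genes for CD8 T and NK cells summed to 19.8 CPM in WT high-RNA cells and 16.3 in comparison cells, and to 16.9 and 18.5 in KO, and none of them reached the minimum for comparison. *Gzma*, *Ncr1* and *Klrb1c* had no UMI. The 10 B and plasma cell genes summed to 43.5 CPM against 51.3 in WT and 42.5 against 40.2 in KO, most of it *Cd74*. The 10 myeloid genes summed to 71.4 against 79.7 in WT and 79.8 against 81.2 in KO, most of it *Cst3*. The 7 erythroid and platelet genes were at 0 in all 4 groups of cells. The 6 genes of regulatory T cells summed to 165 CPM against 219 in WT and 188 against 231 in KO, most of it *Tnfrsf18*, and only 2 of them reached the minimum. Their defining factor *Foxp3* was at 1.96 against 3.98 CPM in WT and 2.49 against 6.13 in KO.

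Across the transcriptome, 6605 genes had a mean of at least 10 CPM over the 4 groups of cells and were compared. A gene was counted as higher or lower past a log2 ratio of CPM of 0.32 or -0.32, the fold named below. In WT, 1233 genes were higher in high-RNA cells (18.7%) and 632 lower (9.57%), and in KO 632 were higher (9.57%) and 513 lower (7.77%). Higher in both libraries were 556 genes (8.42%) and lower in both were 398 (6.03%), and no gene was higher past the fold in one library and lower in the other. The counts of list members in what follows are to be read against these shares. Without the shared barcodes the counts were 550 and 396. With scaling by the median ratio over genes instead of by total UMIs, 401 were higher and 503 lower in both, so which direction held more genes depended on the scaling. All ratios below are of shares of a group's UMIs unless said to be per cell. The median log2 ratio of all genes was 0.084 in WT and 0.032 in KO, against which the medians of gene groups are read. The ratio had the same sign in both libraries for 5559 genes (84.2%), and Pearson's r between them was 0.90 across genes, which are not independent replicates. On the scale of UMIs per cell nearly everything was higher: in high-RNA cells 48 of the genes had fewer UMIs per cell than in comparison cells in WT, 5 in KO and 5 in both.

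**Figure D2:**
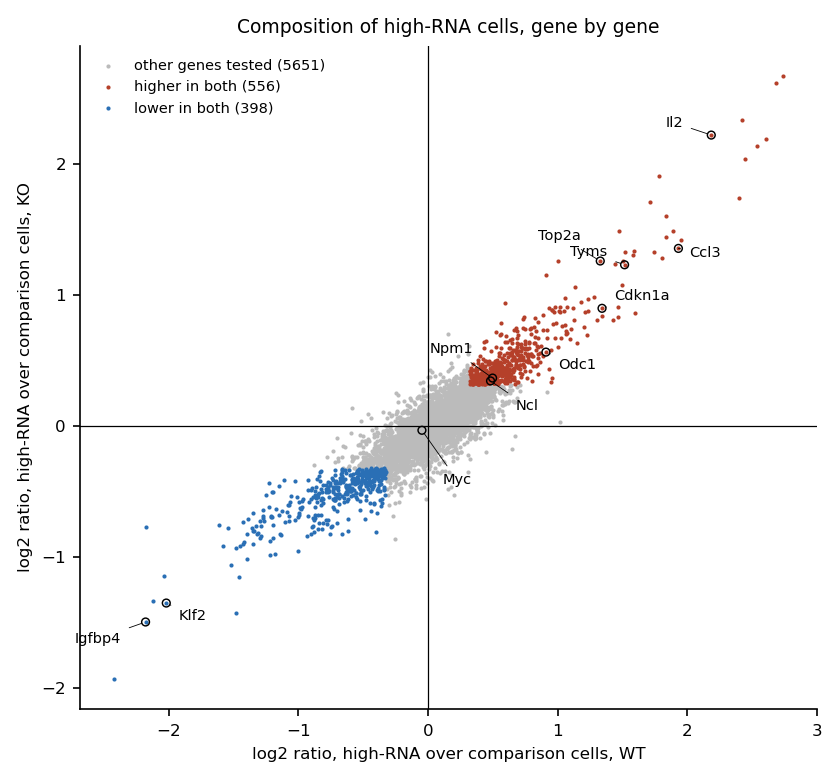
Log2 ratio of CPM, high-RNA over comparison cells, in the stimulated WT library (x axis) and the stimulated KO library (y axis), 1 point for each of the 6605 genes. The 556 genes higher in both (red) and the 398 lower in both (blue) lie along 1 diagonal, with *Il2* far to the upper right, *Klf2* and *Igfbp4* to the lower left, and *Myc* at the origin.

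Genes of ribosome biogenesis, the machinery that transcribes, trims and assembles ribosomal RNA, were nearly all shifted the same way by a small amount. Of 120 genes compared, 115 in WT and 109 in KO had a ratio above 0, where the median of all genes also lay (0.084 and 0.032). Past the fold in both libraries, 20 were higher and none was lower. The median log2 ratio was 0.31 in WT and 0.20 in KO. Together, the genes of the list took 2.14% of the UMIs of WT high-RNA cells against 1.68% in comparison cells, and 2.08% against 1.75% in KO. *Pno1*, an assembly factor of the small subunit, was at 214 CPM against 131 in WT and 188 against 131 in KO, with log2 ratios of 0.71 and 0.53. *Nolc1*, a chaperone of small nucleolar ribonucleoproteins, was at 326 against 206 CPM in WT and 326 against 225 in KO, or 0.66 and 0.53. *Utp20*, a part of the small-subunit processome, followed at 0.64 and 0.47. These were the highest of the list. *Nop56*, a core protein of the box C/D particles that guide RNA methylation, had 0.59 and 0.45, while its partners *Nop58* (0.39 and 0.18) and the methyltransferase *Fbl* (0.14 and 0.072) stayed under the fold in at least 1 library. *Dkc1*, the pseudouridine synthase, was at 0.30 and 0.24. The list's lowest gene was *Nsa2* (-0.21 and -0.20). RNA polymerase I and III subunits moved less, with a median of 0.20 in WT and 0.12 in KO, and 3 of 31 genes past the fold in both, near the share of all genes. *Polr1b*, a large polymerase I subunit, went opposite ways (0.37 and -0.093). Of the listed transcripts that host small nucleolar RNAs, 3 were analysed and 9 were not analysed here. The 3 were all higher in both, led by *Snhg6* at 175 against 48.9 CPM in WT and 121 against 44.4 in KO.

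The promoters of the nucleolar marker *Ncl* and of the list's highest genes are printed to show where the E-box CACGTG, the site best known for MYC and MAX binding, does and does not occur. Each runs 5′ to 3′ from 250 bases before to 50 bases after the start site, from RefSeq on GRCm38.p6, with the motif in capitals. The motif reads the same on both strands. Promoters of *Myc* and *Npm1* are not shown.

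Ncl, chr1:86359406-86359705, minus strand: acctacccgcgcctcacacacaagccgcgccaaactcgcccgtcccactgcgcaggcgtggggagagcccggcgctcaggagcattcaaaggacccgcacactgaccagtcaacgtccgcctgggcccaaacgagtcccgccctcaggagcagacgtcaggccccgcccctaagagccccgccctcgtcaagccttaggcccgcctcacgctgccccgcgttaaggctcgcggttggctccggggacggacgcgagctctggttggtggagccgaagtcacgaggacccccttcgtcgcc
Pno1, chr11:17211540-17211839, minus strand: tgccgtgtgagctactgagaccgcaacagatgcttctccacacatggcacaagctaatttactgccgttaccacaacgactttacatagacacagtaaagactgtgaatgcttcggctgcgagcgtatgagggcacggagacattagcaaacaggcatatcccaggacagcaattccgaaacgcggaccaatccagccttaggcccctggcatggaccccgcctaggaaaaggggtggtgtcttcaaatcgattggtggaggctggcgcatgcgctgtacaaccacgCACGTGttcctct
Nolc1, chr19:46075597-46075896, plus strand: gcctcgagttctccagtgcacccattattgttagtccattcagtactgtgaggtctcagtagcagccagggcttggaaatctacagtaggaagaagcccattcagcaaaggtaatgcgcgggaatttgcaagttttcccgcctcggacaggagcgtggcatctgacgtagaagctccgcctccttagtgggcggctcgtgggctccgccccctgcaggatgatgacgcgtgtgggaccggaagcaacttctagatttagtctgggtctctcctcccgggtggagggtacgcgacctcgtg
Utp20, chr10:88826765-88827064, minus strand: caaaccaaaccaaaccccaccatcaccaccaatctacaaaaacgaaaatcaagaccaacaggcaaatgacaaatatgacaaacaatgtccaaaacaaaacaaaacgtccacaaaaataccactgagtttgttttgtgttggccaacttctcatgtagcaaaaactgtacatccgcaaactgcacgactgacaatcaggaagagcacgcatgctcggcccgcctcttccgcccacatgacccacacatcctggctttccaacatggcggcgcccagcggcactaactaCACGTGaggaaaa

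*Pno1* and *Utp20* held the motif once each, with its first base at position 38 of the transcribed bases, and the *Ncl* and *Nolc1* windows did not hold these letters. Of all 32851 promoters in the reference table, 2349 held it (7.15%). Among genes compared here with a promoter in the table, 681 of 5246 did (13.0%). Genes higher in high-RNA cells of both libraries held it in 67 of 456 (14.7%), genes lower in both in 22 of 305 (7.21%), and the others in 592 of 4485 (13.2%). The genes higher in both thus stood close to the others, and the ribosome biogenesis list stood above, with 20 of 99 genes (20.2%) and 4 of its 18 higher genes (22.2%), *Grwd1*, *Utp20*, *Pno1* and *Mybbp1a*. A match of letters says nothing of whether a factor bound there.

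The ribosome's own proteins behaved differently from the genes that build it. The 82 cytosolic ribosomal protein genes had a median of -0.083 in WT and -0.073 in KO. They took 30.6% of the UMIs of WT high-RNA cells against 32.9% in comparison cells, and 31.5% against 33.3% in KO. Only *Rps27l*, a ribosomal protein paralog induced by p53, was past the fold in both libraries (0.73 and 0.51). Mitochondrial ribosomal proteins were shifted upward, with a median of 0.23 and 0.18, and 9 of 77 genes were higher in both, near the share of all genes. Translation initiation and elongation factors had a median of 0.23 in WT and 0.13 in KO, with 3 of 46 genes higher in both. The helicase *Eif4a1* was at 0.35 and 0.25. The elongation factor *Eef1a1* was lower, at 6413 against 9528 CPM in WT, with log2 ratios of -0.57 and -0.42. Of 22 aminoacyl-tRNA synthetases, 1 was higher in both.

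Among genes of import into the nucleus and the mitochondrion, a part was higher. Nuclear transport genes had a median of 0.41 in WT and 0.28 in KO, with 11 of 35 higher in both and none lower. *Ran*, the GTPase that gives transport its direction, was at 1765 against 1247 CPM in WT and 1747 against 1308 in KO (0.50 and 0.42). Its exchange factor *Rcc1* was at 0.84 and 0.47. Mitochondrial import and chaperone genes had medians of 0.36 and 0.27, with 12 of 30 higher in both, and took 1.00% of the UMIs of WT high-RNA cells against 0.731%, and 0.965% against 0.763% in KO. *Hspd1*, the mitochondrial chaperonin, was at 1501 against 886 CPM in WT and 1525 against 1048 in KO. Cytosolic chaperones moved less (medians 0.28 and 0.16, 2 of 28 higher in both, among them *Hsp90aa1* at 0.63 and 0.60), and the chaperonin subunit *Cct5* was at 0.17 and 0.15.

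Metabolic genes differed by pathway. Nucleotide synthesis had medians of 0.35 and 0.26 with 11 of 29 genes higher in both, led by *Rrm2* (2.61 and 2.19) and *Tk1* (1.59 and 1.34), which make and salvage DNA precursors, while *Ctps2* was lower (-0.72 and -0.57). The kinase *Nme1* was at 0.31 and 0.29. *Odc1*, the first enzyme of polyamine synthesis, was at 399 against 212 CPM in WT and 339 against 229 in KO, with log2 ratios of 0.91 and 0.57, and was joined by *Srm* (0.69 and 0.60), *Sms* (0.56 and 0.34) and *Eif5a*, the factor that polyamines modify (0.40 and 0.33). These were the 4 of 9 polyamine genes higher in both. Glycolytic genes had medians of 0.26 and 0.15 and 2 of 18 past the fold in both: *Ldha*, the lactate-forming enzyme, at 2542 against 1831 CPM in WT and 2363 against 1790 in KO, and *Pgam1* (0.57 and 0.40). One-carbon enzymes had 3 of 10 higher in both, but *Mthfd2* was under the fold (0.19 and 0.21). None of 8 amino acid transporters was past the fold in both. *Slc7a5*, the large neutral amino acid carrier, was at 108 against 109 CPM in WT and 107 against 107 in KO, and its partner *Slc3a2* had ratios of 0.034 and 0.12. The glucose carrier *Slc2a1* was at 0.28 and 0.20. The 76 nuclear genes of the respiratory chain were near the median of all genes (0.096 and 0.067), as were the 21 cholesterol genes (0.099 and 0.060), and the 13 mitochondrially encoded genes were below it (-0.31 and -0.16).

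**Figure D3:**
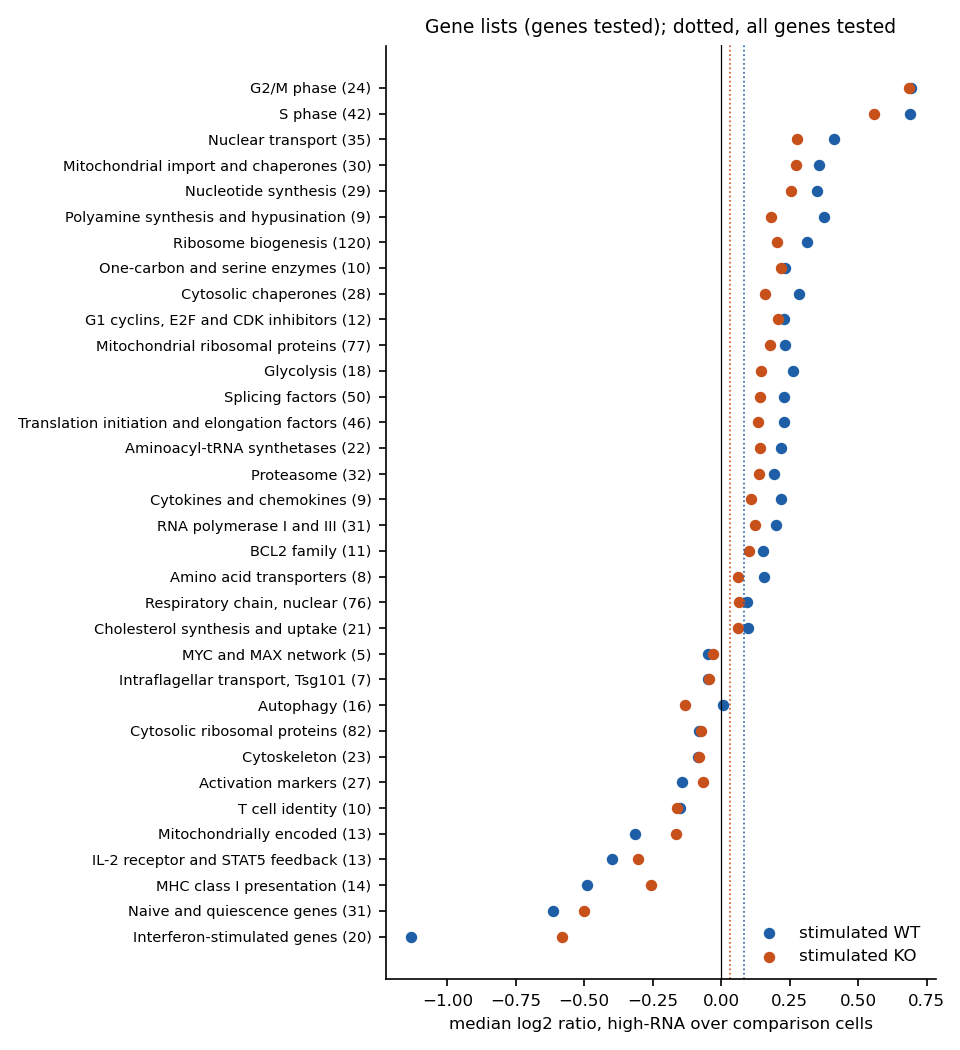
Median log2 ratio of CPM, high-RNA over comparison cells (x axis), as shares of UMIs, for each gene list with the number of genes compared in parentheses (y axis), in stimulated WT (blue) and stimulated KO (orange); dotted lines mark the median of all 6605 genes. Cell cycle, transport and ribosome biogenesis lists lie right of the dotted lines, and interferon-stimulated (-1.13 and -0.58) and naive genes (-0.61 and -0.50) lie farthest left.

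Cell cycle genes had the highest medians of the lists with more than 3 genes at this minimum level. Of 42 S phase genes 32 were higher in both libraries and none lower (medians 0.69 and 0.56), and of 24 G2/M genes 16 were higher and none lower (0.69 and 0.68). The other G2/M genes of the list, 55 in all, did not reach the minimum level, and the G2/M medians moved with it, to 0.21 and 0.14 at a mean of 50 CPM and to 1.33 and 1.04 at 10 UMIs. The minimum was a mean over all groups of cells, so a gene could reach it only through the high-RNA cells, as *Mki67* did. These counts and medians therefore rest in part on which genes reached the minimum. *Ccna2* (2.74 and 2.68), the cyclin of S phase and G2, *Cdk1* (2.54 and 2.14) and *Cdc6* (1.95 and 1.42), which licenses replication origins, were among the largest. Levels were nevertheless low: *Mki67*, a marker of dividing cells, was at 13.9 against 2.63 CPM in WT and 21.8 against 6.53 in KO, and was found in 5.31% of thinned WT high-RNA cells against 1.33%, and in 8.48% against 3.30% in KO. *Top2a* was at 55.3 against 22.0 CPM and 67.8 against 28.3. The replicative helicase subunit *Mcm5* was at 0.63 and 0.48. Among G1 regulators, *Cdkn1a*, the p53-induced inhibitor p21, was at 133 against 52.3 CPM in WT and 137 against 73.4 in KO, and *E2f1* was higher (1.05 and 0.88). The quiescence factors *Rbl2* and *Cdkn1b* were lower past the fold in both.

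A UMI of at least 1 of 6 cycling genes was present in 28.5% of thinned WT high-RNA cells against 14.2% of comparison cells, in 38.3% against 21.7% in KO, and in 3.58% of unstimulated cells of at least 6000 UMIs. Cells with any UMI of those genes before thinning were then left out of both groups, which kept 855 WT and 256 KO high-RNA cells and 1865 and 2351 comparison cells. In these the S phase medians were 0.31 and 0.13 and the G2/M medians 0.088 and 0.042. This follows in part from the choice, because those 6 genes belong to the lists. The ribosome biogenesis medians were 0.31 and 0.19 in the remaining cells, against 0.31 and 0.20 in all.

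*Il2*, the autocrine growth factor of activated T cells, had the highest ratio of all genes with a mean of at least 50 CPM. Its level was 189 CPM in WT high-RNA cells and 41.5 in WT comparison cells, 134 and 28.8 in KO. It thus reached that minimum only through the high-RNA cells. The log2 ratios were 2.19 (2.09 to 2.29) in WT and 2.22 (2.11 to 2.34) in KO, and per cell *Il2* UMIs were 10.4 and 10.6 times as many. After thinning, an *Il2* UMI was found in 21.9% of WT high-RNA cells against 7.57% of comparison cells, in 21.1% against 7.28% in KO, and in 0.293% of unstimulated cells. Before thinning, these shares were 31.7% against 9.67% in WT and 31.0% against 10.2% in KO. They count cells with a UMI and do not limit the share of cells that express *Il2*. The chemokine *Ccl3* was at 40.6 against 10.6 CPM in WT and 39.0 against 15.2 in KO and *Ccl4* at 193 against 92.1 and 209 against 126. *Tnfsf11* (RANK ligand) was at 1.24 and 0.88 on the log2 scale. *Xcl1* stood at 6.37 against 1.36 CPM in WT and 13.5 against 13.0 in KO, and in cells with no second *Trbv* gene, described with the doublets, at 17.3 against 9.29 in KO. *Ifng* was almost not counted (1.51 against 0.350 CPM in WT, 0.425 against 0.431 in KO). Of the 23 cytokine genes 9 could be compared, 4 of them higher in both, and *Ltb*, lymphotoxin beta, was lower (-0.68 and -0.44). *Tnf* was at -0.28 and -0.18.

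Activation markers were not a feature of these cells. Of 27 compared, 4 were higher in both libraries and 3 lower, with medians of -0.14 and -0.068. *Il2ra*, the high-affinity IL-2 receptor chain, was at 174 against 173 CPM in WT and 174 against 169 in KO. *Cd69*, an early surface marker, was at 258 against 301 and 197 against 228. *Tnfrsf4* (OX40) was higher, at 412 against 294 CPM in WT and 369 against 275 in KO, and so were *Cd200* (268 against 125 CPM in WT, with log2 ratios of 1.09 and 0.67), *Bhlhe40* and *Pdcd1*. *Irf4*, which tracks receptor signal strength, was at 0.26 and 0.10. The immediate early genes *Egr1*, *Nr4a3* and *Nr4a1* (-1.08 and -0.60) were lower in both.

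Naive and quiescence genes were lower, 20 of 31 compared past the fold in both libraries and none higher, with medians of -0.61 and -0.50 as shares of the RNA but 0.58 and 0.69 as UMIs per cell. *Klf2*, the factor that maintains quiescence and lymph node homing, was at 57.8 against 234 CPM in WT and 54.2 against 138 in KO (log2 ratios -2.02 and -1.35). It was among the few genes with fewer UMIs even per cell, 0.563 times those of a comparison cell in WT and 0.893 times in KO. *Ccr7*, the lymph node chemokine receptor, differed less, at 414 against 605 CPM and 467 against 628 (-0.55 and -0.43). *Tcf7*, a factor of naive and memory cells, had -0.82 and -0.60, and the antiproliferative *Btg1* -0.74 and -0.61. S1pr1, the egress receptor, was under the minimum level but pointed the same way (3.36 against 17.7 CPM in WT and 3.95 against 11.0 in KO), as did *Il7r* (2.86 against 6.78 and 1.82 against 4.07). *Slfn2* was the highest of the list (0.12 and 0.092). The nuclear RNA *Malat1* was at 1023 against 1391 CPM in WT and 1079 against 1404 in KO.

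Interferon-stimulated genes had the lowest medians of the lists, -1.13 in WT and -0.58 in KO, with 17 of 20 compared lower in both and none higher; as UMIs per cell the medians were 0.057 and 0.61. The guanylate-binding protein *Gbp2* was at 189 against 481 and 83.5 against 146. *Ifih1*, a sensor of double-stranded RNA (0.30 and 0.39), and *Bst2* (0.16 and 0.31) lay above 0, and *Isg20* was under the fold in KO (-0.39 and -0.19). Genes of MHC class I presentation had medians of -0.49 and -0.26 with 5 of 14 lower, B2m among them (-0.63 and -0.36). Targets and brakes of IL-2 receptor signaling were also lower while *Il2* was higher: 6 of 13 compared were lower in both and none higher, with medians of -0.40 and -0.30. As UMIs per cell the medians of both lists were above 0, in WT 0.70 for MHC class I and 0.79 for the IL-2 receptor list. The lower genes were the receptor chain *Il2rb* (-0.61 and -0.33), *Bcl2*, *Pim1*, *Socs2*, *Cish* (-1.29 and -0.84) and *Socs1* (-1.36 and -0.78). Within the BCL2 family, the survival gene *Bcl2* was at 67.4 against 169 CPM in WT and 78.8 against 140 in KO, the only 1 of 11 compared that was lower in both. The 3 higher in both were the proapoptotic *Bax* (0.60 and 0.37) and *Bid* and the survival gene *Bcl2l1*.

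By rank over genes with a mean of at least 50 CPM, the highest after *Il2* were *Snhg6* (1.84 and 1.44), the thymidylate synthase *Tyms* (1.52 and 1.23), *Cdkn1a*, the maintenance methylation factor *Uhrf1* (1.23 and 0.97), *Rgs1* (1.14 and 1.06), the p53 target *Phlda3* (1.30 and 0.81), *Nrn1* (1.21 and 0.76), *Hells* (1.13 and 0.81) and *Marcksl1* (1.02 and 0.87). The mean was over all groups of cells, so a gene could pass it through the window where it was higher. The lowest were *Igfbp4* (43.3 against 196 CPM in WT and 78.8 against 222 in KO, or -2.18 and -1.50), *Klf2*, *Slfn1* (-1.46 and -1.15), *Samhd1* (-1.45 and -0.91), which degrades deoxynucleotides in resting cells, *Ms4a4b* (-1.42 and -0.89), *Bcl2*, *Ifi27l2a* (-1.29 and -0.85), *Gbp2*, *Socs1* and *Cish*.

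Among the smaller groups, 2 of 7 genes of the intraflagellar transport list, which also holds the endosomal sorting gene *Tsg101*, were past the fold in both libraries, *Ift57* higher (0.66 and 0.36) and *Ift80* lower (-0.99 and -0.63). In the MYC and MAX network, the antagonist *Mxd4* was lower (-1.28 and -0.70) and *Max* stood at -0.33 and -0.16. Splicing factors had 6 of 50 genes higher in both (medians 0.23 and 0.14), near the share of all genes, and proteasome subunits none of 32 in either direction (0.19 and 0.14). Of 16 autophagy genes 1 was lower in both, and of 23 cytoskeleton genes 1 was higher and 3 were lower.

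The composition changed gradually with UMIs per cell, and most of the change lay below the window. Ribosome biogenesis genes took 1.48% of the UMIs of WT cells with 6000 to 9000 UMIs, 1.75% at 9000 to 12000, 1.93% at 12000 to 15000, 2.07% at 15000 to 18000, 2.16% at 18000 to 25000 and 2.11% at 25000 to 35000. The KO series ran 1.58%, 1.82%, 1.96%, 2.03%, 2.09% and 2.07%. The share was therefore flat within the window in both libraries. The upper bin of the window also held more cells with a second *Trbv* gene, by the next-Trbv measure described with the doublets. These were 49.1% against 18.6% in the lower bin in WT, and 69.2% against 36.5% in KO. The series over bins was not recomputed without such cells. *Klf2* went in WT from 364 CPM at 6000 to 9000 UMIs to 72.2 at 15000 to 18000 and stood at 58.9 and 54.6 in the 2 bins of the window, and in KO it went from 220 to 57.1 and then 55.4 and 50.1. From 6000 UMIs up, *Il2* was higher in each further bin, also within the window: 118 CPM at 15000 to 18000 UMIs, 172 at 18000 to 25000 and 235 at 25000 to 35000 in WT, and 80.4, 131 and 146 in KO. Below 6000 UMIs it did not follow this order, with 256 CPM in WT and 107 in KO at 3000 to 6000. In that bin mitochondrially encoded genes took 4.26% of the UMIs in WT and 4.38% in KO. *Myc* had no trend, between 237 and 286 CPM in WT and between 212 and 239 in KO.

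**Figure D4:**
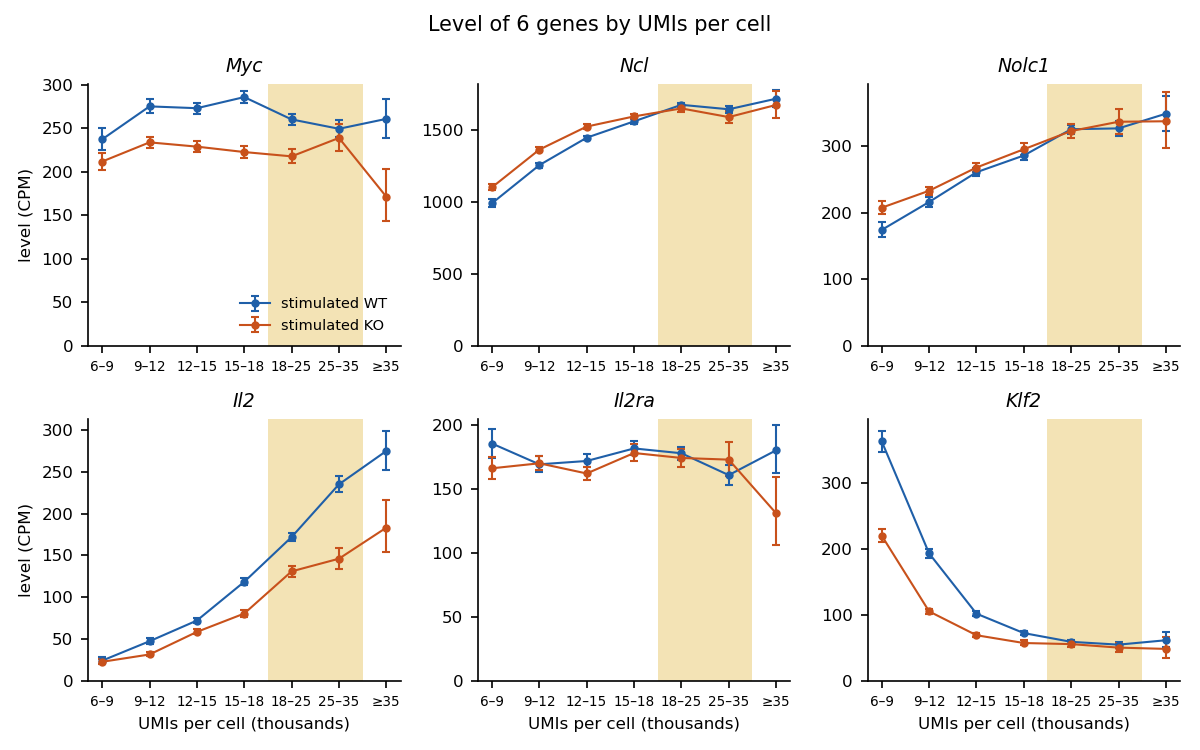
Level in CPM (y axis, from 0) of *Myc*, *Ncl*, *Nolc1*, *Il2*, *Il2ra* and *Klf2* against UMIs per cell (x axis, in units of 1000) in stimulated WT (blue) and stimulated KO (orange), with exact 95% counting intervals; shading marks the high-RNA bins. *Ncl* and *Nolc1* level off at the window, *Il2* climbs through it to 235 and 146 CPM, *Klf2* is near its lowest level before it, and *Myc* and *Il2ra* show no steady trend.

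The high-RNA cells were not uniform. With each cell thinned to 6000 UMIs, the ribosome biogenesis share ran in WT from 1.54% at the 10th percentile of cells through a median of 2.12% to 2.78% at the 90th, and in KO from 1.56% through 2.03% to 2.64%. The comparison cells reached almost as high (90th percentile 2.44% and 2.38%) but spread further down (10th percentile 0.933% and 1.12%), and the unstimulated cells had a median of 0.817%. Naive genes took a median of 0.383% in both libraries, with 90th percentiles of 0.600% and 0.550%, against medians of 0.567% and 0.500% in comparison cells and 1.32% in unstimulated cells. UMIs of activation genes outnumbered those of naive genes in 50.1% of WT high-RNA cells and 47.8% of KO high-RNA cells, against 29.6% and 31.5% of comparison cells and 1.10% of unstimulated cells. Both groups were then limited to cells with more activation than naive UMIs before thinning (879 WT and 372 KO high-RNA cells, 694 and 1029 comparison cells). Some medians came closer to 0: ribosome biogenesis to 0.13 and 0.052, mitochondrial import to 0.18 and 0.15, glycolysis to 0.12 and 0.088, naive genes to -0.24 and -0.16. Others lay farther from 0: G2/M genes at 0.88 and 0.95, G1 regulators at 0.57 and 0.35, activation markers at -0.25 and -0.22. Amino acid transporters went from 0.16 and 0.061 to -0.15 and -0.12. *Il2* stayed at 1.58 and 1.77 and *Klf2* went to -0.71 and -0.16. This limit selects on the naive and activation genes themselves. The changed medians of those lists, and the smaller difference in *Klf2*, therefore follow in part from the choice.

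A droplet that catches 2 cells sums their UMIs, so doublets were measured as an alternative account of a high total. A T cell usually expresses 1 rearranged receptor beta chain, and a second *Trbv* gene in a cell was counted. With cells thinned to 6000 UMIs, at least 2 *Trbv* genes had 2 UMIs or more in 22.5% of WT high-RNA cells (20.6 to 24.6) against 11.0% of comparison cells (9.79 to 12.4), and in 34.0% of KO high-RNA cells (30.7 to 37.5) against 15.5% (14.3 to 16.7). Over the bins the share was level up to 18000 UMIs, at 11.0% in WT and 17.4% in KO for 15000 to 18000, and then rose to 18.3% and 30.4% at 18000 to 25000 and to 38.4% and 51.1% at 25000 to 35000. Another measure, without thinning and chosen after seeing the data, asked whether the next *Trbv* gene had at least 0.3 of the UMIs of a leading gene of at least 5. It was met by 390 of 1534 WT high-RNA cells (25.4%) against 8.29% of comparison cells, and by 294 of 689 in KO (42.7%) against 11.4%. At 25000 to 35000 UMIs it reached 49.1% and 69.2%. With 1 UMI a gene after thinning, the shares were alike (48.5% against 48.7% in WT and 67.8% against 66.4% in KO), so the excess lay in second genes of 2 UMIs or more. A second beta chain transcript also occurs in some single T cells, and other sources of a second *Trbv* UMI were not measured, so these shares are not doublet rates. Doublets of cells with the same *Trbv* gene are missed: random pairs of cells differed in it in 91.7% of cases in WT and 91.0% in KO. A doublet score from simulated doublets, the top 6% of each library, marked 15.7% of WT high-RNA cells against 2.57% of comparison cells and 15.9% against 7.72% in KO. No cell was left out of the values above for any of these.

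**Figure D5:**
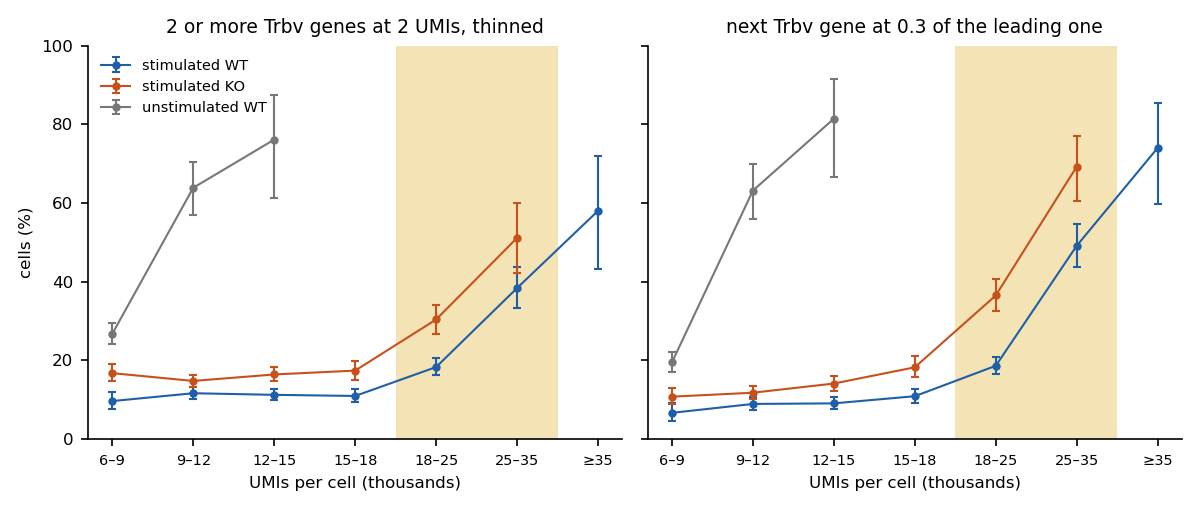
Percentage of cells (y axis) with signs of a second receptor beta chain against UMIs per cell (x axis, in units of 1000), by at least 2 *Trbv* genes at 2 UMIs after thinning (left) and by a next *Trbv* gene at 0.3 of the leading one (right), with exact 95% intervals; shading marks the high-RNA bins. In stimulated WT and KO the share on the left stays level to 18000 UMIs and climbs inside the window to 38.4% and 51.1%, the share on the right already rises below 18000, to 10.9% in WT and 18.2% in KO, and the unstimulated library climbs at lower totals.

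The composition was then taken over cells with a leading *Trbv* gene and no second one by that measure, 1144 WT and 395 KO high-RNA cells against 1638 and 2345 comparison cells. In these, 730 genes were higher in both libraries and 431 lower, among them 525 of the 556 and 353 of the 398. Ribosome biogenesis genes had medians of 0.33 and 0.24 and naive genes -0.65 and -0.53. *Il2* stood at 214 CPM against 39.3 in WT and 141 against 30.3 in KO, and *Klf2* at 51.9 against 233 and 48.1 against 134. High-RNA cells with a second *Trbv* gene lay between, with *Il2* at 107 CPM in WT and 121 in KO and *Klf2* at 76.1 and 64.0. For these lists and genes, the differences were as large or larger without the cells that showed a second beta chain.

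KO and WT were last compared within the high-RNA cells, where medians of 20794 and 21346.5 UMIs limit the difference in depth. Of the 6605 genes, 165 were higher in KO (2.50%) and 148 lower (2.24%), and the median log2 ratio was 0.0030. The nucleolar genes were close: *Ncl* -0.027, *Npm1* 0.0071, *Nolc1* 0.00038, and the ribosome biogenesis list -0.061 in the median. *Myc* was at -0.21, the glycolysis list at -0.17 in the median with 2 of 18 genes lower past the fold and none higher, and the hosts of small nucleolar RNAs at -0.18 with 1 of 3 lower. *Odc1* stood at 339 CPM in KO against 399 in WT and *Snhg6* at 121 against 175. S phase and G2/M genes were slightly above 0 (medians 0.16 and 0.21), with *Mki67* at 0.65. At 25000 to 35000 UMIs, with 133 KO and 357 WT cells, the medians were 0.00099 and -0.047 and *Mki67* was at -1.09. In that bin the next-Trbv measure of a second gene was met by 69.2% of KO and 49.1% of WT cells. Whether the unequal shares bear on the changed values was not tested. *Il2* was lower in KO by a log2 ratio of -0.49 (-0.56 to -0.42), and by -0.22 without cells with a cycling UMI. KO and WT differed in the share of high-RNA cells with a second *Trbv* gene, 42.7% against 25.4%. Without those cells *Il2* was at 141 CPM in KO and 214 in WT, and in them at 121 and 107. Of the 20 interferon-stimulated genes, 12 were lower in KO and none higher (median -0.53), and of 14 MHC class I genes 5 were lower.

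The genes that differed most between KO and WT high-RNA cells were ranked at a mean of at least 50 CPM, receptor segments aside. *Ift20*, described above, was under that level. The ranked genes named here also differed in the same direction between the comparison cells, with a ratio that was larger there for some and smaller for others. *Ly6a* (Sca-1), an interferon-inducible surface protein, was at 34.0 CPM in KO and 223 in WT, a log2 ratio of -2.72 (-2.84 to -2.59) against -3.24 in comparison cells. *Gbp2* (-1.18 against -1.73), *Irf1* (-0.93 against -1.18), *Gbp4* (-0.92 against -1.02) and *Dapl1* (-0.86 against -1.25) followed. Higher in KO were *Marcksl1* (0.76 against 0.91), *Nrn1* (0.70 against 1.15), the splicing regulator *Mbnl1* (0.70 against 0.59) and the tetraspanin *Cd81* (0.59 against 0.71). Of the genes named here, *Igfbp4*, an insulin-like growth factor binding protein, had the widest gap, at 0.86 (0.76 to 0.97) within the high-RNA cells and 0.18 within the comparison cells. With 1 library per genotype, the effect of the deletion cannot be told apart from other differences between the 2 cultures, animals or libraries.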

How the data were processed

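The authors aligned reads to mm10 and counted UMIs with Cell Ranger (3.1.0 per the file headers), and deposited raw UMI counts per gene and called barcode for 3 libraries, which summed to 37133949 UMIs in kept unstimulated cells. Which 10x kit was used is given differently in the labels and the methods. From these counts, cells with at least 15% mitochondrial UMIs were left out, and counts were summed per library and UMI window as CPM. Ratios have exact binomial intervals, and shares Clopper-Pearson ones, at the 95% level. Under 3 UMIs no fold was read. Detection used cells thinned once (seed 1) to 6000 UMIs. Cells are not replicates, and no p-value is given. Counting of calls was tested on simulated data, and no outcome of that test is reported or used here.

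Members and lists were chosen with earlier results of these data known. Named genes were *Ift20*, the markers, a fixed set of growth, cytokine, naive, cycling and T cell genes, the 10 highest and 10 lowest mean log2 ratios (mean of at least 50 CPM, no receptor segments), 5 and 5 for KO over WT, and the most abundant, highest and lowest genes of a list. Some genes that this rule names are not reported here. Other list members named were chosen after their values were seen.

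The doublet score used 2 simulated doublets per cell, 2000 genes and 30 components. Alternatives changed scaling, minimum level, windows, fold, mitochondrial limit, thinning and left-out cells. Single-Trbv cells, the next-Trbv measure and leaving out shared barcodes were added after seeing the data. Python 3.11.15, numpy 2.4.6, scipy 1.17.1 and pandas 2.3.3 were used.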

Additional observations from a re-analysis of the deposited data

Results flagged for a closer look

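Some cells outside the comparisons also showed high totals, a second *Trbv* gene or *Il2*. In the unstimulated library, 7 cells held 18000 to 35000 UMIs although its median was 4627, and among its cells of 9000 to 12000 UMIs 63.1% met the next-Trbv measure of a second receptor beta chain. Above the window, where 50 WT and 18 KO cells held more than 35000 UMIs, the same measure was met by 74.0% of the WT and 83.3% of the KO cells. Below the comparison window, WT cells of 3000 to 6000 UMIs had *Il2* at 256 CPM, higher than the 189 CPM of the high-RNA cells and the 41.5 of the comparison cells. Mitochondrially encoded genes took 4.26% of the UMIs of these 339 cells, against 1.19% in high-RNA and 1.47% in comparison cells. They may thus differ in quality, which was not tested.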

How the results depend on the processing

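Each result was recomputed with 1 choice changed at a time, and the cause of a change was not tested unless the choice itself shows it. The cells were chosen by UMIs per cell, which alone adds the log2 of 2.28 to every gene on that scale. Counted so, 6507 genes were higher in both libraries and 1 lower, and on that log2 scale the medians were 1.502 (WT) and 1.39 (KO) for ribosome biogenesis, 0.58 and 0.69 for naive genes, 0.057 and 0.61 for interferon-stimulated genes and 0.75 and 0.81 for nuclear long noncoding RNAs, with 0.79 for IL-2 receptor feedback and 0.70 for MHC class I in WT. In the same way *Ccr7* (0.64 and 0.76), *Tcf7* (0.37 and 0.58), *Btg1* (0.45 and 0.57), *Malat1* (0.75 and 0.81), *Gbp4* (0.67 and 0.76), *Irf1* (0.38 and 0.63) and, in WT, *Dapl1* (0.67) turned positive, as did, in KO, *Ift20* (0.59), *Il7r* (0.031), *Cish* (0.35), *Socs1* (0.41), *Gbp2* (0.39), *Ifi27l2a* (0.33), *Bcl2* (0.36), *Ms4a4b* (0.30), *Samhd1* (0.27), *Slfn1* (0.039) and *Ly6a* (0.43). Median-ratio scaling gave -0.70 for naive genes in WT.

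Genes higher and lower in both libraries, and then higher and lower in KO, numbered 1531, 1130, 1911 and 1251 at a minimum of 10 UMIs, 256, 149, 16 and 46 at a mean of 50 CPM, 120, 96, 20 and 37 at a fold of 1.5, and 28, 9, 1 and 9 at a fold of 2. A comparison window of 6000 to 8000 UMIs gave 1259 and 815 in both, with medians of 0.60 and 0.42 for ribosome biogenesis -1.05 and -0.85 for naive genes, -0.76 and -0.55 for MHC class I, -0.61 and -0.54 for IL-2 receptor feedback, -0.83 and -0.71 for nuclear long noncoding RNAs, 0.63 and 0.55 for mitochondrial import and, in KO, -1.31 for interferon-stimulated genes. Other growth lists also lay farther from 0. Cells with more activation than naive UMIs gave 248 lower in both and 223 lower in KO, medians of 0.13 and 0.052 for ribosome biogenesis and -0.24 and -0.16 for naive genes, and turned *Ccr7* (0.10 and 0.19), S1pr1 (0.057 and 0.71) and, in WT, *Dapl1* (0.029). KO against WT gave 322 higher and 402 lower in the 25000 to 35000 window, where *Mki67* (-1.09) turned, 304 and 257 without cycling UMIs, where *Ifng* in WT also turned (-0.26, high-RNA over comparison), 373 and 344 after thinning, and 265 higher in single-Trbv cells. High-RNA windows of 20000 to 35000 or 18000 to 25000, a comparison window of 8000 to 12000, mitochondrial limits of 10% and 5%, per-cell fractions and leaving out shared barcodes, cells with 2 *Trbv* genes or the top 6% of doublet scores kept each count within 1.5 times.

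Second-Trbv shares in high-RNA and comparison cells were 48.5% and 48.7% in WT and 67.8% and 66.4% in KO at 1 UMI a gene, 12.1%, 5.05%, 18.5% and 6.16% at 3 UMIs, 47.7%, 18.4%, 65.3% and 26.4% without thinning, and 25.4%, 8.29%, 42.7% and 11.4% by the next-Trbv measure. No paired analysis was possible because each condition was 1 library. Precision is set by UMIs per group: genes of few UMIs, such as *Ifng*, *Xcl1* and *Mki67*, have wide intervals.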
